A study of Danio rerio with 35 samples.

Results

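The 144 maternal RNAs described here were high in wild-type (WT) zebrafish embryos at 2 hours post fertilization (hpf). In total RNA they had fallen several-fold by 6 hpf whether or not the embryo could transcribe its own genome. They were chosen from 27151 single-gene entries of the exon table by level alone. An entry had to reach 20 RPKM (reads scaled to exon length and library size) in WT at 2 hpf, be at least 4-fold lower in the mean of 3 WT libraries at 6 hpf, and be at least 8-fold lower under α-amanitin at 6 hpf. The first of these conditions left 5409 entries, the second 1390 and the third 183. The 150 with the highest level at 2 hpf were taken, and 6 genes named in the rule (btg4, zar1l, slbp2, org, cldnd and cldng) were then left out. The rule also names buc and tdrd6, which did not meet it. A symbol was found for 122 of the 144, and 22 are known only by an identifier.

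The study followed zebrafish embryos across the maternal-to-zygotic transition in 35 libraries, 31 of messenger RNA from 5 pooled embryos each and 4 of ribosome profiling from 50 embryos each. Embryos of the strain TUAB were injected at the 1-cell stage with α-amanitin, with morpholinos (MO, antisense oligonucleotides) against Nanog, SoxB1, both, or the U1 and U2 splicing RNAs (U1U2 MO), or were bathed in cycloheximide from the 32-cell stage. Embryos of the strain MZpou5f1 {hi349Tg/hi349Tg}, labelled as lacking maternal and zygotic pou5f1 (pou5f3 in the annotation), were used alone, with the Nanog MO, with the SoxB1 MO, with both (triple loss of function), and with both plus rescue mRNA. Untreated TUAB embryos were the WT. No library was labelled as control-injected, so injection itself and the injected agent cannot be told apart in comparisons with uninjected embryos. Libraries were ribosomal RNA-depleted total RNA at 2, 4 and 6 hpf or poly(A)+ RNA at 4, 6 and 8 hpf. WT total RNA at 6 hpf had 3 libraries, Nanog+SoxB1 MO at 6 hpf had 2, and the other 30 groups had 1 each. Whole embryos were measured, so fewer cells with a transcript and less transcript per cell cannot be told apart. The morpholinos act on the protein or on splicing, so the RNA level of their targets does not check them.

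The egg supplies the embryo with messenger RNA made in the ovary, and the first divisions run on that store. Clearance of the store uses machinery of separate origins: factors already present in the egg, which act without new transcription, and zygotic products such as the microRNA miR-430. α-Amanitin inhibits RNA polymerase II and so leaves only the egg's own machinery, while cycloheximide stops protein synthesis on maternal and zygotic RNA alike.

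Marker and target levels bear on the labels. A list of 13 genes of zygotic activation summed to 4.26 RPKM under α-amanitin at 4 hpf and 7.65 RPKM at 6 hpf, where WT had 1061 RPKM at 4 hpf and 2175, 2214 and 2338 RPKM at 6 hpf. pou5f3 was at 27.989 RPKM in the library labelled MZpou5f1 at 4 hpf, against 157.462 RPKM in WT. The MZpou5f1 libraries with morpholinos and no rescue mRNA had between 0.088 and 1.868 RPKM at that stage. The one with rescue mRNA had 818.564 RPKM. The library labelled MZpou5f1 at 4 hpf thus stood apart from the others of its strain without rescue mRNA. It went in part against its label, and counts at 4 hpf are also given without it. Of 10 entries that mark ovarian follicle cells, 5 were at 0 in WT at 2 hpf. Among the others CYP11A1, a steroid-forming enzyme, was at 140 RPKM. The part of follicle cell RNA in the levels at 2 hpf was not tested.

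In WT embryos at 2 hpf the 144 RNAs spanned 26.4 to 573 RPKM, with a median of 49.7 RPKM. The most abundant with a symbol was MT1X, a metallothionein that binds metal ions, at 551 RPKM. It was followed by ca15b, a carbonic anhydrase gene whose RNA marks germ plasm, at 463 RPKM, the cell-surface protein gene thy1 at 386 RPKM, the ubiquitin ligase gene MYLIP at 311 RPKM and the lipase gene LIPG at 231 RPKM. Symbols in capitals are given as in the name table, and they may not separate duplicated zebrafish genes. The threshold values fell close together at the edge of the choice. ccdc115, at 26.398 RPKM, was the last RNA taken by its level at 2 hpf and ZNF513, at 26.182 RPKM, the first left out. senp2 kept 24.4% of its 2 hpf level in WT at 6 hpf and tarbp1 kept 12.45% under α-amanitin. Just outside lay ENSDARG00000089268, with 25.2% in WT, and zgc:114123, with 12.50% under α-amanitin.

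Among the named RNAs, 38 whose products are well known were put into 5 groups after their values had been seen, so the groups carry no test. DNA replication and repair had 10 (among them CDC45, of the replicative helicase, brca2, of homologous recombination, RMI1 and its partner TOP3A, and the mismatch repair gene PMS2). Chromosome segregation and the centrosome had 8, among them cdca9, a borealin-related subunit of the chromosomal passenger complex, the microtubule-depolymerizing kinesin kif2c, stil, which acts in centriole duplication, and oip5, which acts in centromere chromatin loading. The ubiquitin and SUMO pathways had 8 (MYLIP, rnf4, MARCHF7, senp2, JOSD2, zufsp, vhl and eloca), mitochondrial gene expression 6 (such as the mitochondrial ribosomal protein genes MRPL12 and MRPL48) and signalling 6, such as the oocyte growth factor bmp15 and the EGF family ligand hbegfa. At 4 hpf the group medians lay between 19.7% and 23.4% of the 2 hpf level under α-amanitin and between 83.8% and 106% under cycloheximide, against 47.8% to 61.1% in WT. Single RNAs ranged more widely, as in signalling, from 42.4% to 111% under cycloheximide, against 18.3% to 73.3% in WT.

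Timing differed sharply between the inhibitors. At 4 hpf, the 144 RNAs kept a median of 20.3% of their 2 hpf level under α-amanitin and 89.6% under cycloheximide, against 49.8% in WT. At 6 hpf, the medians were 7.59% under α-amanitin and 90.7% under cycloheximide, against 8.40%, 8.87% and 9.16% in the 3 WT libraries. The α-amanitin and WT values at 6 hpf are those that chose the RNAs and carry no test. As a level of 50% or more of that at 2 hpf, 3 of 144 RNAs were still present under α-amanitin at 4 hpf and 132 under cycloheximide, against 70 in WT. The shares of the 5409 above that level were 80.3% under α-amanitin and 98.2% under cycloheximide, against 93.2% in WT, so that the 144 (2.08% and 91.7%, against 48.6% in WT) were below the general share in all 3 libraries. At 6 hpf, 121 were above it under cycloheximide (84.0%), where 90.6% of the 5409 were.

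**Figure D1:**
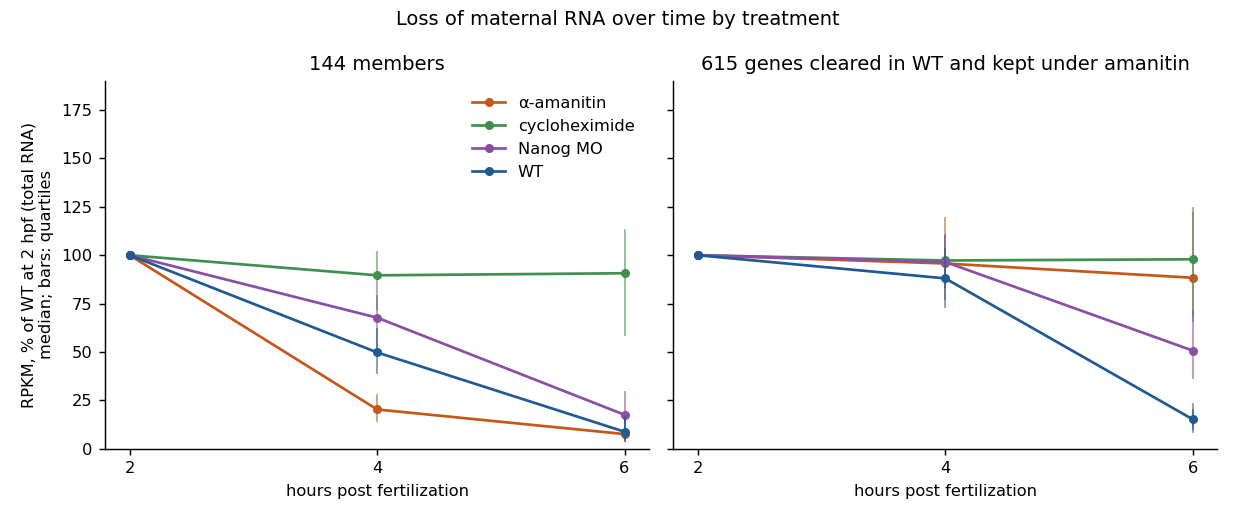
Median RPKM as a percentage of WT at 2 hpf (y axis) against hours post fertilization (x axis) in total RNA, for the 144 RNAs (members, left) and for 615 RNAs cleared in WT but kept under α-amanitin (right); bars are quartiles over RNAs and the WT point at 6 hpf is the mean of 3 library medians. The 144 fell fastest under α-amanitin, to 20.3% at 4 hpf, and stayed near 90% under cycloheximide; the values at 2 hpf, and those of WT and α-amanitin at 6 hpf, were used to choose both sets.

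The RNAs differed among themselves in WT at 4 hpf. Their share of the 2 hpf level ran from 9.25% for hirip3 to 115% for ccdc82, and 9 of 144 (6.25%) were already at 25% or less, where 0.629% of the 5409 were. The lowest shares after hirip3 were those of gbgt1l1 (11.7%), a glycosyltransferase gene, tmem51a (17.5%), hbegfa (18.3%) and zgc:113314 (18.5%). These are shares in total RNA. Among RNAs with a symbol, hirip3 and tmem51a had the highest log2 ratios of poly(A)+ to total RNA in WT at 4 hpf (4.02 and 1.92). After ccdc82 the highest were tarbp1 (114%), trim35-29 (94.8%), tamalin (91.5%) and the DNA glycosylase gene NEIL3 (88.9%). By the rule itself the slow ones were also low at 6 hpf. ccdc82 had 13.2, 15.8 and 11.6 RPKM in the 3 WT libraries at 6 hpf, against 89.4 RPKM in WT at 4 hpf.

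Under α-amanitin at 4 hpf, 141 of 144 RNAs were lower than in WT, and 104 were at least 2-fold lower, where 16.1% of all genes were. The median log2 ratio of α-amanitin to WT (RPKM + 0.5) was -1.31 for the 144, 0.11 for the 615 RNAs that α-amanitin kept at 6 hpf, and -0.03 for all 5409 at 20 RPKM or more at 2 hpf. No test is given, as each condition had 1 library at 4 hpf and the same inhibitor at 6 hpf had chosen the RNAs.

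MT1X had 87.8 RPKM under α-amanitin and 840 RPKM under cycloheximide, against 237 RPKM in WT at 4 hpf. cdca9 had 17.0 RPKM under α-amanitin and 171 RPKM under cycloheximide, against 75.2 RPKM in WT. Both inhibitors thus moved these 2 RNAs away from WT in opposite directions. The lowest ratios to WT under α-amanitin were -3.69 (log2) for rpz2, -2.89 for trim35-29, -2.86 for ccdc115, -2.77 for sinup and -2.64 for DCK, the gene of deoxycytidine kinase. rpz2 had 1.78 RPKM under α-amanitin, against 28.9 RPKM in WT. Only adgrf3b was at least 2-fold higher than in WT, where 5.79% of all genes were, with 20.9 RPKM under α-amanitin, against 8.63 RPKM in WT. At 6 hpf adgrf3b was at 2.98 RPKM under α-amanitin, against 1.34, 0.962 and 1.61 RPKM in the WT libraries.

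Cycloheximide held most of the 144 near their level at 2 hpf. At 4 hpf, 132 of 144 were higher under cycloheximide than in WT, with a median log2 ratio of 0.80, against 0.10 for the 615 and 0.02 for the 5409. At least 2-fold higher were 46 of 144, where 9.03% of all genes were, and 2 were at least 2-fold lower, where 7.88% of all genes were. With the libraries scaled to one median the count of 46 became 30. The 13 zygotic activation genes summed to 69.3 RPKM under cycloheximide, against 1061 RPKM in WT at 4 hpf. Under α-amanitin their sum was 4.26 RPKM, and the part of zygotic activation in the levels under either inhibitor was not tested. The highest ratios were those of MRPL48 (2.51), stil (2.02), coa3b (1.98), MT1X (1.82) and gbgt1l1 (1.82). stil had 58.1 RPKM under cycloheximide, against 14.0 RPKM in WT at 4 hpf, and WT at 2 hpf had 47.2 RPKM. The lowest were rpz2 (-1.51), si:dkey-241l7.3 (-0.91), med1l (-0.86), si:dkeyp-98a7.8 (-0.45) and DCK (-0.37). rpz2 had 9.79 RPKM under cycloheximide, against 28.9 RPKM in WT at 4 hpf, and it was thus below WT under both inhibitors.

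Set directly against each other at 4 hpf, α-amanitin was lower than cycloheximide for all 144 RNAs and at least 2-fold lower for 135, where 20.3% of all genes were; 0 were at least 2-fold higher, where 4.78% were. The median log2 ratio of α-amanitin to cycloheximide was -2.10. From 4 to 6 hpf the cycloheximide level moved little, with a median log2 ratio of 0.03 for 6 hpf over 4 hpf, while that under α-amanitin was lower again at 6 hpf, with a median log2 ratio of -1.31 that rests in part on the values used in the choice. At 6 hpf, cdca9 had 193 RPKM under cycloheximide, against 1.72, 1.23 and 4.14 RPKM in WT, the highest ratio of the named RNAs. sun1a, of the nuclear envelope, had 131 RPKM under cycloheximide, against 1.96, 2.06 and 2.97 RPKM in WT. At the low end were si:dkey-241l7.3, with 3.37 RPKM under cycloheximide, against 0.26, 0.372 and 5.02 RPKM in WT, and hirip3, with 5.27 RPKM, against 2.86, 2.88 and 2.34 RPKM in WT. The RNA of si:dkey-241l7.3 was thus the only one of these 4 whose cycloheximide value lay inside the WT range.

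**Figure D2:**
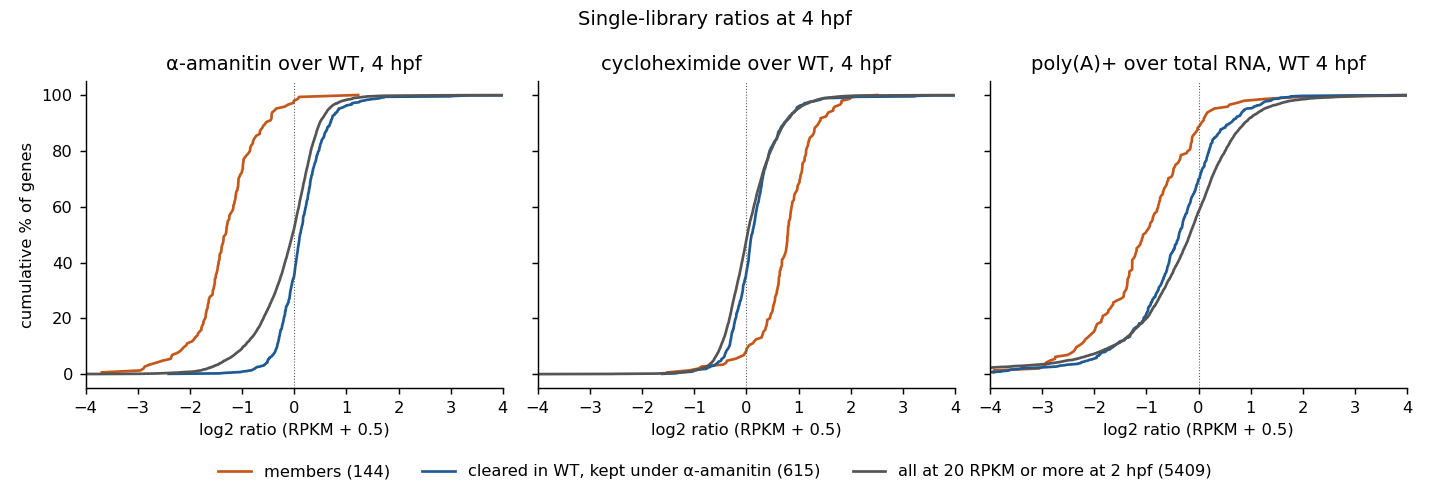
Cumulative percentage of genes (y axis) by log2 ratio of RPKM + 0.5 (x axis) at 4 hpf, for α-amanitin over WT, cycloheximide over WT and poly(A)+ over total RNA in WT, 1 library each. The 144 RNAs (orange) lie left of both compared sets under α-amanitin (median -1.31) and in poly(A)+ RNA (median -1.04) and right of them under cycloheximide (median 0.80).

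The poly(A)+ library of WT at 4 hpf held less of these RNAs than the total RNA library did. The median log2 ratio of poly(A)+ to total RNA was -1.04 for the 144, -0.38 for the 615 and -0.17 for the 5409. At least 2-fold lower in poly(A)+ RNA were 73 of 144, where 22.2% of all genes were, and 3 were at least 2-fold higher, where 10.1% were. ITPR2, an inositol trisphosphate receptor gene, had 1.13 RPKM in poly(A)+ RNA, against 24.2 RPKM in total RNA. NIN, of the centrosome, had 3.60 RPKM in poly(A)+ RNA, against 33.5 RPKM in total RNA, and the germ-line Tudor gene tdrd6b had 3.74 RPKM, against 31.7 RPKM. Opposite to these, hirip3 had 48.4 RPKM in poly(A)+ RNA, against 2.51 RPKM in total RNA, and tmem51a had 26.0 RPKM, against 6.50 RPKM. As a share of WT total RNA at 2 hpf, the median of the 144 was 22.9% in poly(A)+ RNA at 4 hpf, 7.18% at 6 hpf and 8.10% at 8 hpf. The highest single shares at these stages were 178%, 132% and 126%. From 4 to 6 hpf, 20 of 144 rose in poly(A)+ RNA, where 5643 of 14418 genes did. The fall of every one of the 144 by 6 hpf is thus a statement about total RNA. The 2 kinds of RNA are scaled separately, and no poly(A)+ library at 2 hpf was analysed here outside the profiling input.

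Levels were also higher under splicing knockdown. Under the U1U2 MO at 4 hpf they kept a median of 75% of the 2 hpf level, against 49.8% in WT, and the median log2 ratio to WT was 0.47, where that of the 5409 was 0.07. Of the 144, 9 were at least 2-fold higher than in WT, where 1.33% of all genes were, and 0 were at least 2-fold lower, where 4.41% were. COMMD4 had 21.4 RPKM under the U1U2 MO, against 7.86 RPKM in WT. The lowest ratio was that of kif2c, with 23.0 RPKM under the U1U2 MO, against 36.0 RPKM in WT. The zygotic activation genes summed to 454 RPKM under the U1U2 MO, against 1061 RPKM in WT, and their part in this difference was not tested. These are single libraries with no replicate check.

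**Figure D3:**
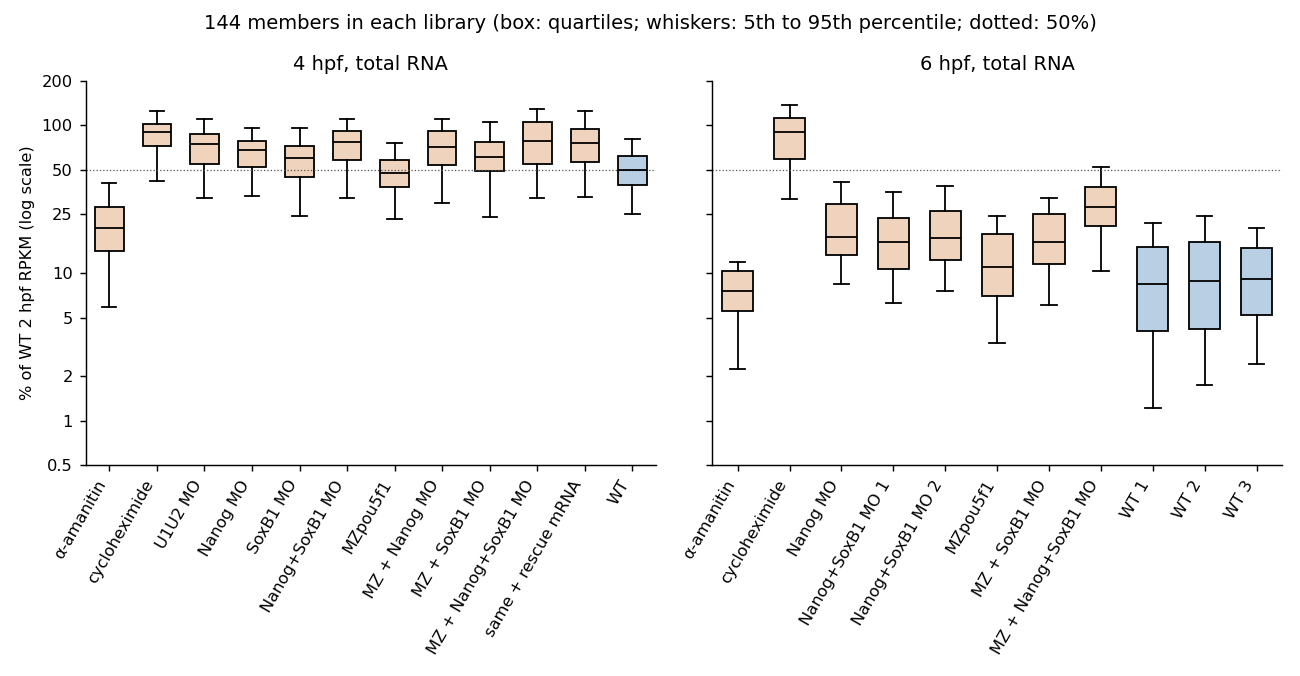
RPKM of the 144 RNAs as a percentage of WT at 2 hpf (y axis, log scale) in each total RNA library at 4 hpf (left) and 6 hpf (right); boxes are quartiles over RNAs, whiskers the 5th to 95th percentile, blue boxes WT. At 4 hpf every library with the Nanog MO has a higher median (67.7% to 78.3%) than the library of the same background without it, and at 6 hpf cycloheximide stays at 90.7% while WT is at 8.40% to 9.16%.

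More of these RNAs was present at 4 hpf in embryos injected with the Nanog MO. The WT and MZpou5f1 libraries were from uninjected embryos, so injection and loss of Nanog cannot be told apart against them. In an additive limma fit of total RNA (all 8 combinations of Nanog MO, SoxB1 MO and the MZpou5f1 strain), 81 of 144 were higher under the Nanog MO at a Benjamini-Hochberg adjusted p below 0.05, where 5.35% of all genes were, and 0 were lower, where 2.34% were. The median log2 change was 0.42 for the 144, 0.13 for the 615 and 0.04 for the 5409, and the estimate was above 0 for 141 of 144. Of the 615, 88 were higher and 1 lower. All 144 passed the filter on low values and 113 had an unadjusted p below 0.05. With no condition replicated at 4 hpf, the p-values measure departures from additivity.

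RMI1 had 19.959, 22.831, 33.558 and 35.009 RPKM with the Nanog MO (alone, with SoxB1 MO, in MZpou5f1, and in MZpou5f1 with SoxB1 MO), against 10.372, 17.208, 22.442 and 9.163 RPKM in SoxB1 MO, MZpou5f1, MZpou5f1 SoxB1 MO and WT. It was the largest change among the called RNAs with a symbol, 0.94 ± 0.093 (log2, SE, adjusted p = 0.000996, limma), although its lowest value with the Nanog MO lay below the highest without it. COMMD4 had 13.8, 17.4, 12.1 and 15.1 RPKM in the 4 libraries with the Nanog MO, against 8.45, 6.42, 7.82 and 7.86 RPKM in those without, in the same order. Its 2 sets of libraries did not overlap, and its change was 0.89 ± 0.087 (adjusted p = 0.000965, limma).

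MBIP, which encodes a subunit of the ATAC histone acetyltransferase complex, had 53.4, 68.3, 50.0 and 52.8 RPKM with the Nanog MO, against 37.9, 31.2, 27.3 and 26.2 RPKM without (log2 change 0.87 ± 0.112, adjusted p = 0.00392, limma). mtmr1b, of the myotubularin phosphatase family, changed by 0.80 ± 0.077 (adjusted p = 0.000911, limma), and zgc:77880 by 0.75 ± 0.101 (adjusted p = 0.00441, limma). For 37 of 144 RNAs all 4 libraries with the Nanog MO lay above all 4 without, where 3.28% of all genes did so, and for 0 all 4 lay below, where 2.28% did. MBIP, COMMD4 and mtmr1b are among the 37. Of the abundant RNAs, LIPG (0.69 ± 0.072, adjusted p = 0.00134), CDC45 (0.59 ± 0.083, adjusted p = 0.00554), ca15b (0.48 ± 0.069, adjusted p = 0.0058) and MT1X (0.43 ± 0.107, adjusted p = 0.0475) rose too (limma), as did bmp15 (0.43 ± 0.082, adjusted p = 0.018). brca2 did not pass, at 0.15 ± 0.118 (adjusted p = 0.488, limma).

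**Figure D4:**
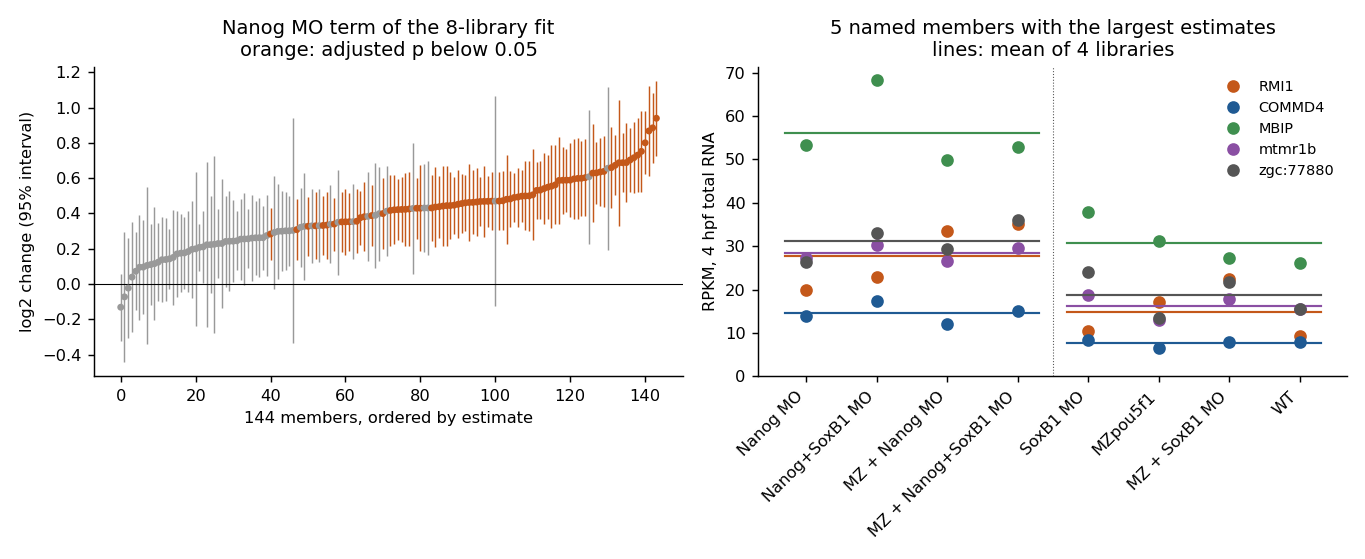
Left, log2 change under the Nanog MO at 4 hpf with its 95% interval (y axis) for the 144 RNAs in order of estimate (x axis), with adjusted p below 0.05 in orange; right, RPKM (y axis) in the 4 libraries with and the 4 without the Nanog MO (x axis) for the 5 named RNAs with the largest estimates, lines being means. Estimates are above 0 for 141 RNAs, and 81 are called higher.

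In each of the 4 backgrounds the Nanog MO library stood above its partner. The partners with the SoxB1 MO were themselves injected, and those of WT and MZpou5f1 were not. The median log2 ratio of the 144 was 0.38 over WT, 0.34 over SoxB1 MO, 0.54 over MZpou5f1 and 0.36 over MZpou5f1 SoxB1 MO, with 122 to 140 of 144 RNAs above 0. A limma term for the difference between MZpou5f1 and WT backgrounds, added after the data were seen, called 0 of 144, where 4 of 14498 genes were called. An unadjusted p below 0.05 was reached by 22 of the 144 and by 1647 of the 14498 genes (limma). The smallest adjusted p of the 144 was 0.334 (limma). With so few calls among all genes, the count of 0 does not show that the backgrounds responded equally. The count of 81 fell to 58 without the library labelled MZpou5f1, 52 without the SoxB1 MO library, 52 without Nanog+SoxB1 MO, 45 without the Nanog MO in MZpou5f1, and 46 without both morpholinos in MZpou5f1. Among all genes the calls higher were 398, 375, 286, 264 and 265 in the same order, against 775 with all libraries. The summed level of the 13 zygotic activation genes moved with the Nanog MO in this fit as well. It was 95.3, 16.2, 34.5 and 30.3 RPKM in the 4 libraries with it, against 637, 599, 394 and 1061 RPKM in the 4 without. The library with rescue mRNA also had the Nanog MO and lay outside this fit. There the sum was 1540 RPKM, of which SOX3 had 623 RPKM and SOX2 443 RPKM. The 144 kept a median of 75.9% of the WT 2 hpf level in that library, against 78.3% in triple loss and 49.8% in WT. The part of zygotic activation in the result was not tested.

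SoxB1 MO had smaller estimates than the Nanog MO, a difference that was not itself tested. The median log2 change of the 144 was 0.22, where that of the 5409 was 0.04, and 122 of 144 estimates were above 0. Of the 144, 4 were called higher, where 0.0897% of all genes were, and 0 lower, where 0.0552% were (limma; 76 had an unadjusted p below 0.05). Named among the 4 were cdca9 (0.53 ± 0.061, adjusted p = 0.0329, limma) and oip5 (0.47 ± 0.063, adjusted p = 0.0468, limma). oip5 had 29.1, 36.9, 53.7 and 66.9 RPKM with the SoxB1 MO (alone, with Nanog MO, in MZpou5f1, and in MZpou5f1 with Nanog MO), against 25.8, 37.3, 46.7 and 23.0 RPKM in Nanog MO, MZpou5f1, MZpou5f1 Nanog MO and WT, and the 2 sets overlap. No RNA of the 144 was called when any 1 of the 8 libraries was left out, where at most 1 of all genes was.

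MZpou5f1 embryos differed from the WT strain in both directions, with no common shift of the 144. In the same fit, 39 of 144 were called higher, where 24.1% of all genes were, and 27 lower, where 18% were, with a median log2 change of 0.02. Both shares are near those of all genes. Without the library labelled MZpou5f1, which held pou5f3 RNA, the counts were 44 and 24, where 3216 and 2393 of 14282 genes were called. Strain and the loss of pou5f3 cannot be told apart here.

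Some single RNAs differed widely by strain. trim35-29, of the tripartite motif family, had 8.48, 9.90, 8.71 and 10.7 RPKM in MZpou5f1 embryos (alone, with Nanog MO, with SoxB1 MO and with both), against 86.1, 115, 114 and 98.5 RPKM in Nanog MO, SoxB1 MO, Nanog+SoxB1 MO and WT (log2 change -3.38 ± 0.097, adjusted p = 5.21e-07, limma). hbegfa had 12.7, 20.4, 20.3 and 31.6 RPKM in the MZpou5f1 libraries, against 3.32, 5.24, 6.24 and 5.41 RPKM in the others (1.93 ± 0.204, adjusted p = 0.000184, limma). In neither case did the strains overlap. Higher too were the sialyltransferase gene st3gal1 (1.47), gbgt1l1 (1.42), MRPL48 (1.35) and thy1 (1.19). Lower, besides trim35-29, were rpz2 (-1.61), si:dkeyp-98a7.8 (-1.29), sinup (-1.07) and DCK (-1.02). Of these, trim35-29, rpz2, sinup and DCK are also among the 5 lowest RNAs with a symbol under α-amanitin at 4 hpf.

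Levels were higher in triple loss of function, with the widest gap at 6 hpf. In total RNA at 6 hpf the median share of the WT 2 hpf level was 28.1% in triple loss, against 8.40%, 8.87% and 9.16% in WT. The other conditions lay between, at 17.6% under the Nanog MO, 16.3% and 17.4% under Nanog+SoxB1 MO, 11% in MZpou5f1 and 16.3% in MZpou5f1 SoxB1 MO. For the MZpou5f1 strain, triple loss included, these are not shares of its own level at 2 hpf, which was not measured. Relative to the WT mean, 103 of 144 were at least 2-fold higher in triple loss (32% of all genes), 78 under the Nanog MO (22% of all genes), 61 and 62 in the 2 Nanog+SoxB1 MO libraries (24% and 23.7%), 61 in MZpou5f1 SoxB1 MO (18.8%) and 18 in MZpou5f1 (8.89%). The 615 RNAs that α-amanitin kept were higher more often, with 95.4% of them in triple loss, 83.7% under the Nanog MO, 81.8% and 83.9% under Nanog+SoxB1 MO, 59.7% in MZpou5f1 SoxB1 MO and 14.3% in MZpou5f1, where the 144 had 71.5%, 54.2%, 42.4% and 43.1%, 42.4% and 12.5%. Under cycloheximide, 141 of 144 were higher (37.1% of all genes). At least 2-fold lower were 1 in triple loss (14.1% of all genes), 4 under the Nanog MO (10.2%), 6 and 2 under Nanog+SoxB1 MO (10% and 9.88%), 4 in MZpou5f1 SoxB1 MO (11%), 8 in MZpou5f1 (8.04%) and 0 under cycloheximide (21.4%). With libraries scaled to one median the higher counts became 67 in triple loss, 51 under the Nanog MO, 30 and 39 under Nanog+SoxB1 MO, and 38 in MZpou5f1 SoxB1 MO. Since the WT libraries at 6 hpf helped choose the RNAs, these counts carry no test. MBIP had 47.3 RPKM in triple loss, 52.4 RPKM under the Nanog MO and 53.3 and 51.0 RPKM under Nanog+SoxB1 MO, against 6.94, 13.9 and 10.3 RPKM in WT at 6 hpf. These 4 values are near its 49.6 RPKM in WT at 2 hpf. COMMD4, a large change under the Nanog MO at 4 hpf, had 2.198 RPKM in triple loss, 3.154 RPKM under the Nanog MO and 4.036 and 3.915 RPKM under Nanog+SoxB1 MO, against 3.873, 3.856 and 4.334 RPKM in WT at 6 hpf. It was thus not above WT in triple loss or under the Nanog MO at this stage.

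The libraries at 4 hpf (total RNA) and at 6 and 8 hpf (poly(A)+ RNA) did not enter the choice and allowed a test with stage as a block, although WT at 6 hpf, in other libraries, had chosen the RNAs. In triple loss against WT, 46 of 144 were called higher, where 11.6% of all genes were, and 0 lower, where 4.64% were (limma, adjusted p below 0.05; 9 libraries). The share was 31.9% for the 144 and, with 242 called higher and 0 lower, 39.3% for the 615. The median log2 change was 0.90 for the 144, 1.65 for the 615 and 0.45 for the 5409. By stage, the median of the 144 was 0.62 at 4 hpf, 1.36 at 6 hpf and 0.76 at 8 hpf, where that of the 615 was 0.15, 2.69 and 2.22. With 1 library per condition and stage, the p-values of this fit are set by such differences between stages. The kind of RNA changed after 4 hpf, so stage and kind of RNA cannot be told apart between 4 hpf and the later stages. The largest called changes were those of si:ch211-160j14.2 (3.41 ± 0.598, adjusted p = 0.0255), ripor3 (3.29 ± 0.724, adjusted p = 0.0361), tdrd6b (3.09 ± 0.657, adjusted p = 0.0345), LIPG (3.05 ± 0.547, adjusted p = 0.0272) and thy1 (2.82 ± 0.552, adjusted p = 0.0312), all from limma.

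This count rested on single libraries. It was 0 without WT or without triple loss at 6 hpf, where 7 of all genes were called higher in each case. It was also 0 without either of them at 8 hpf, where 12 and 11 of all genes were. The count was 10, 3 and 4 without the rescue library at 4, 6 and 8 hpf, where 327, 53 and 87 of all genes were. Without triple loss at 4 hpf it was 77, where 5986 of 15743 genes were. With all libraries 1853 of 16028 genes were, so the calls among all genes moved in the same direction. Rescue mRNA against triple loss called 0 of 144 in either direction, where 0.605% of all genes were higher and 0.00624% lower (limma; 17 had an unadjusted p below 0.05). Simulated data had known changes set in triple loss against WT, and rescue against triple loss was not simulated. There this fit recovered 2% of log2 changes of 1 and 39% of log2 changes of 2. The count of 0 does not show that the levels were equal. The median log2 change was -0.36, with 24 of 144 above 0, and by stage it was -0.07 at 4 hpf, -0.53 at 6 hpf and -0.40 at 8 hpf. It was -0.79 for the 615, of which 0 were called, and -0.14 for the 5409. By stage the median of the 615 was -0.08, -1.09 and -1.23. Leaving out triple loss at 4 hpf raised the calls to 1 higher and 11 lower of 144. Among all genes that setting called 833 higher and 1581 lower of 15743, so the rise was not particular to the 144.

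Few ribosomes were found on these RNAs at 2 hpf. Ribosome profiling counts the short fragments of RNA that ribosomes protect, and their level over the input level gives a measure of translation per RNA. By symbol, 69 of 144 were matched to the profiling table, and 66 of them had at least 20 input reads in WT. The median of footprints per input (a ratio of RPM, reads scaled to library size, here with poly(A)+ RNA as input) was 0.109 for these 66, 0.647 for 298 of the 615, 0.560 for 2884 of the 5409, and 0.527 for all 6632 transcripts with enough input. Of the 66, 64 lay below the median of all transcripts. In Nanog+SoxB1 MO embryos the median was 0.134, where that of all transcripts was 0.519. Each is 1 library, so no test is given.

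The lowest in WT were RNAs with 0 footprint reads in that library. ripor3 had 0 footprint reads and 610 input reads in WT, a ratio of 0 with an exact 95% (Clopper-Pearson) upper limit of 0.0215. cdca9 had 0 footprint reads and 138 input reads (upper limit 0.0958). tacc3, of the spindle, had 7 footprint reads and 761 input reads, a ratio of 0.0325 (95% interval 0.013 to 0.0673). These intervals cover counting error only, since PCR reads are not independent molecules. In all, 10 of the 66 (15.2%) had 0 footprint reads, where 3.71% of all transcripts with enough input did. The others were hirip3 (515 input reads), RAD17 (172), LYSMD2 (131), hbegfa (98), PARS2 (73), si:dkey-241l7.6 (56), vhl (50) and ANKRD12 (47). With few input reads the upper limits were wide, at 0.271 for vhl and 0.289 for ANKRD12. In the deeper footprint library of Nanog+SoxB1 MO embryos, only hirip3 of these RNAs again had 0 footprint reads. RAD17 had 6 there, vhl 5 and hbegfa 4.

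At the high end, tmem51a had a ratio of 1.42 (0.954 to 2.08) in WT and 0.363 (0.201 to 0.615) in Nanog+SoxB1 MO. It was followed by GPN3 at 0.649, MBIP at 0.505, the stress-response gene sesn2 at 0.480 and the proton pump subunit gene ATP6V0B at 0.451, the last on 6 footprint reads. Only tmem51a and GPN3 were above the median of all transcripts in WT. tmem51a was also one of the 3 RNAs at least 2-fold higher in poly(A)+ than in total RNA at 4 hpf, as was hirip3, which had 0 footprint reads.

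**Figure D5:**
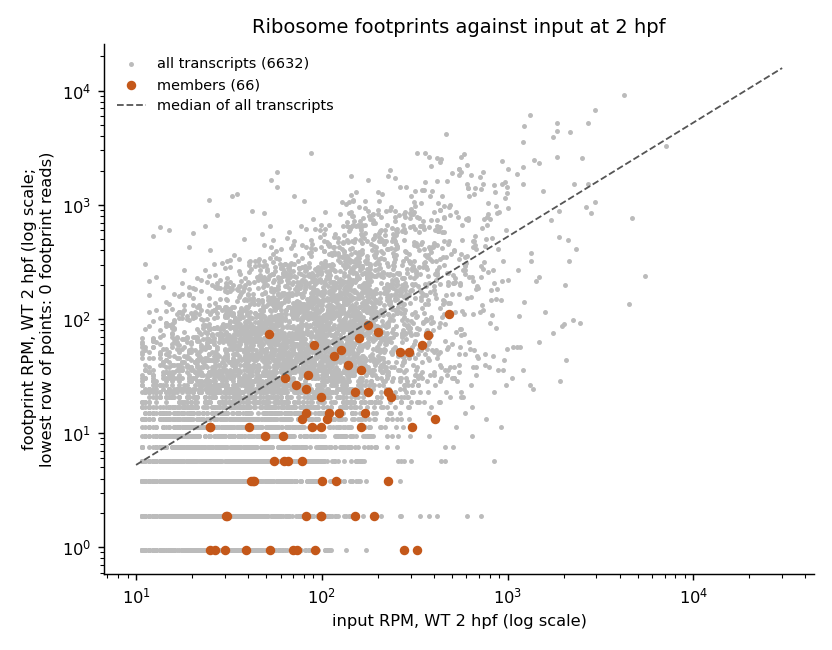
Ribosome footprint RPM (y axis, log scale) against input RPM (x axis, log scale) in WT at 2 hpf, 1 library each, for all 6632 transcripts with at least 20 input reads (grey) and for 66 of the 144 RNAs (orange); the dashed line is the median ratio of all transcripts, 0.527. Of the 66, 64 lie below the line, and the bottom row holds transcripts with 0 footprint reads.

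Some of these genes were transcribed again in the embryo while their maternal RNA was disappearing. Intron reads, which come from unspliced new RNA, were used as the sign: at least 0.5 intron RPKM in WT, and at least 4-fold above both α-amanitin and WT at 2 hpf. By this measure 13 of 141 with intron entries (9.22%) were transcribed at 4 hpf, where the share was 3.33% of 600 with intron entries among the 615, and 26.5% of 5199 among the 5409. At 6 hpf, where each of the 3 WT libraries had to pass, they were 33 of 141 (23.4%), where the share in those sets was 11.5% and 48.4%. tacc3 had 0.868 intron RPKM in WT at 4 hpf and 1.94, 1.95 and 2.05 intron RPKM in WT at 6 hpf, with 0.011 and 0 under α-amanitin at these stages and 0 in WT at 2 hpf. Its exon level at 6 hpf was 22.3, 20.9 and 20.7 RPKM in WT, above the 4.13 RPKM under α-amanitin. brca2, stil, kif2c, CDC45, rnf8 and SNX10 also carried new intron signal at 6 hpf. cdca9 did not, with 0, 0 and 0.068 intron RPKM in WT at 6 hpf.

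Lists of genes related to stored RNA were compared with the 144. Of the 5409 entries at 20 RPKM or more at 2 hpf, 1390 were cleared in WT, that is, at least 4-fold lower at 6 hpf. The list of mRNA decay and deadenylation factors matched 43 entries, of which 30 were at 20 RPKM or more at 2 hpf and 5 were cleared in WT. ZFP36L2, an AU-rich element binding decay factor, met all 3 thresholds with 23.1 RPKM at 2 hpf but was too low for the highest 150. Under the Nanog MO 3 of 42 tested were higher (LSM1, cth1 and CNOT10) and 0 lower. Translation and poly(A) control of stored RNA had 6 cleared of 19 at 20 RPKM or more, with 2 of 22 higher under the Nanog MO. Egg coat and oocyte genes had 5 of 12 cleared, of which ca15b and bmp15 are among the 144, with 3 of 19 higher and 1 lower. The numbers cleared were 4 of 30 for meiosis and the embryonic cell cycle, 9 of 17 for germ cells and germ plasm (ca15b among them), 4 of 12 for maternal axis and signalling, 4 of 15 for ubiquitin and proteolysis and 0 of 3 for epithelial junctions. Their counts higher under the Nanog MO were 7 of 37, 4 of 17, 3 of 19, 1 of 23 and 0 of 5, in that order, and those lower were 0, 0, 1, 1 and 1. Of all genes, 5.35% were higher and 2.34% lower. Apart from ca15b and bmp15, none of the listed genes matched by symbol was among the 144. As the 144 were a small part of the 5409, and each list had 3 to 30 entries at that level, few matches were possible. Their lack does not show that such genes were rarer among the 144. Many listed names matched no entry, as in the decay list, with 64 names and 43 entries. Of the 144, 22 had no symbol to match, and btg4, zar1l and slbp2 had been left out by the rule.

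ca15b, which is on both the oocyte and the germ plasm list, had 70.0 RPKM under α-amanitin and 358 RPKM under cycloheximide, against 182 RPKM in WT at 4 hpf. At 6 hpf it had 36.5 RPKM under α-amanitin, 408 RPKM under cycloheximide and 135 RPKM in triple loss, against 11.9, 17.4 and 29.7 RPKM in WT. bmp15 had 16 RPKM under α-amanitin and 59.6 RPKM under cycloheximide, against 34.1 RPKM in WT at 4 hpf. For both RNAs WT at 4 hpf lay between the inhibitors.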

How the data were processed

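Whole zebrafish embryos were measured by RNA sequencing and ribosome profiling. Exon and intron levels are RPKM values of the authors, deposited with 1 column per library. The deposited profiling table is named as RPKM, but its values are RPM: all were whole multiples of 1 step per column within 0.1 read, from which reads were recovered (581218 footprint and 1612899 input reads in Nanog+SoxB1 MO embryos; 399567 and 1492629 in WT). Per the labels, footprints were 28 to 29 nt long, from the 64-cell stage. Per the submitters' processing notes, the build was Zv9 (danRer7) and the tools included TopHat2 2.0.7, Bowtie 0.12.9 and CASAVA 1.8.2. The absolute depth of the RPKM libraries is unknown. Relative to WT total RNA at 4 hpf, it ran from 0.227 to 2.58, as read from the steps of low values.

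Of 27997 exon entries, 846 that join overlapping genes were left out. Symbols were matched for 72.9% of exon and 95.6% of profiling entries. Tests used limma 3.58.1 in R 4.3.3 (lmFit, eBayes with trend) on log2(RPKM + 0.5), over genes that reached 1 RPKM in 2 or more libraries, with Benjamini-Hochberg adjustment over all genes, two-sided. The fit at 4 hpf had 14498 genes and 4 residual degrees of freedom; the rescue fit had 16028 genes and 4. Median residual spreads were 0.16 and 0.46 (log2). Each fit was tested on simulated data, for the Nanog MO at 4 hpf and for triple loss against WT in the rescue fit. There the rescue fit recovered far fewer of the known changes than the fit at 4 hpf. Fold changes on this scale understate those of low genes, and RPKM are relative to the library total. Nothing says that the libraries came from separate crosses. Both fits had 1 library per combination, so their p-values do not measure the spread between samples of a condition. They measure departures from additivity at 4 hpf and, in the rescue fit, how far the effect of a condition differed between stages. In the rescue fit that includes the change from total RNA to poly(A)+ RNA after 4 hpf. Single-library ratios have no test.

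The RNAs, gene lists and role groups were chosen with earlier results of these data known. Genes named are the 20 highest at 2 hpf, up to 5 called with the largest changes per contrast and direction, the 5 highest and lowest by share left in WT at 4 hpf, by ratio to WT under the inhibitors and U1U2 MO, by poly(A)+ over total RNA and by footprints per input, every one of the 144 in a gene list, and those at the thresholds. Other genes were named after their values were seen. Alternatives changed the pseudocount, the filter, the scaling, the fold, the input read minimum, the libraries and the choice of RNAs. Python 3.11.15 was used for the rest.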

Additional observations from a re-analysis of the deposited data

How the results depend on the processing

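No paired analysis was possible because the replicate numbers are shared only by WT and Nanog+SoxB1 MO at 6 hpf, where the WT libraries chose the RNAs and no test is made. Of 397 values recomputed for 30 counts, 323 stayed within 1.5 times the reported count; for the other 74 the cause was not tested, apart from the choices that change how many RNAs are counted. The stricter choice of α-amanitin at 6 hpf at most 1/16 of the 2 hpf level leaves 51 RNAs. Of these, 28 were higher and 1 lower under the Nanog MO, 14 higher and 8 lower in MZpou5f1 and 17 higher in triple loss. At 4 hpf 46 were 2-fold lower and 0 higher under α-amanitin, 22 higher and 1 lower under cycloheximide, and 22 lower in poly(A)+ RNA. At 6 hpf 50 were higher under cycloheximide, 27 under the Nanog MO, 22 and 20 under Nanog+SoxB1 MO, 10 in MZpou5f1, 23 in MZpou5f1 SoxB1 MO and 36 in triple loss. At 50% or more of the 2 hpf level at 4 hpf were 0 under α-amanitin, 45 under cycloheximide and 36 under the U1U2 MO, against 20 in WT, and 18 had footprints per input below the median.

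With all 177 RNAs past the thresholds, 1 was lower under the Nanog MO, 5 were higher in poly(A)+ RNA and 5 kept 50% under α-amanitin. In the 4 libraries of WT background alone, 45 were called higher under the Nanog MO and 16 under the SoxB1 MO. Of all 13410 genes tested there, 277 and 151 were. In the 4 libraries of MZpou5f1 background the SoxB1 MO count was 11, where 36 of 13538 genes were called higher. Fits to 4 libraries leave fewer residual degrees of freedom than the fit to 8. Without a filter on low values the SoxB1 MO count was 0 (0 of all genes) and the triple loss count 5 (150 of 26311 genes). Median-ratio scaling gave 2 and 29 for these, where 7 and 1021 of all genes were called higher. In triple loss, quantile normalization gave 24 (565 of all genes), and no stage block gave 0 (2 of all genes). With 4-fold in place of 2-fold at 4 hpf, α-amanitin had 0 higher and 16 lower, cycloheximide 2 and 0, and the U1U2 MO 0 higher. With libraries scaled to one median, 30 were higher under cycloheximide and 5 in poly(A)+ RNA at 4 hpf, and 8 kept 50% under α-amanitin. At 6 hpf that scaling gave 51 higher under the Nanog MO, 30 and 39 under Nanog+SoxB1 MO, 38 in MZpou5f1 SoxB1 MO and 67 in triple loss. A limit of 25% in place of 50% of the 2 hpf level gave 45 under α-amanitin, against 135 in WT.

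Leaving out 1 library at a time, WT at 6 hpf in the choice included, gave 45 to 80 higher under the Nanog MO (82 without 1 WT library in the choice), 0 to 4 under the SoxB1 MO, 29 to 44 higher and 22 to 29 lower in MZpou5f1, 0 to 77 higher and 0 to 7 lower in triple loss, and 0 to 1 higher and 0 to 11 lower with rescue. Leaving out a library of a fit moved the calls among all genes too. They ran from 264 to 744 higher under the Nanog MO and from 7 to 5986 higher in triple loss. With rescue they ran from 0 to 1581 lower. Choosing the RNAs without WT replicate 3 at 6 hpf gave 1 lower in triple loss. Read depth limits the footprint ratios, and single libraries limit every ratio that has no test.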
